A study of Mus musculus with 3 samples.

Results

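The genes described here are 9 components of the machinery by which cells sense nucleic acid in the cytosol and pass the signal to the kinase Tbk1: Ddx58, Ifih1, Dhx58, Mavs, Tmem173, Tbk1, Ikbke, Tank and Zbp1. They were chosen by symbol from their known roles, not from their levels here, and each matched 1 of the 55536 annotated genes. All 9 were measured, meaning that they reached a mean of at least 10 expected counts over the libraries, as did 15876 genes in all. Their expected counts ran between 179 and 6853 per gene and library.

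The samples were primary macrophages of the mouse strain C57BL/6J, grown from bone marrow and exposed to 100 ng/ml Lipid A, the membrane anchor of bacterial lipopolysaccharide, for 15 min. Total RNA depleted of ribosomal RNA was sequenced from the nucleus, which the labels also call the nucleoplasmic fraction. There were 3 libraries, labelled biological replicates 1 to 3, and all belonged to this single group. No unstimulated, later or cytosolic sample was analysed here, so the values are levels under Lipid A and no change caused by it can be given. The labels leave age and sex unrecorded and name 1 donor entry for all libraries, so the SDs and p-values below measure the spread between these samples, which may be technical. The starting amount of RNA was 500 ng for replicate 2 and 1 µg for the others.

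The depth was 18516063 expected counts over annotated genes in replicate 1, 17345644 in replicate 2 and 20947006 in replicate 3. All 8 macrophage markers were at a mean of 10 TPM or more (a relative abundance of transcripts, corrected for length), between 26.3 and 1978 TPM. None of the B cell, neutrophil, dendritic cell or fibroblast markers passed 0.943 TPM. Among the 4 T cell markers Cd4 was at 21.4 ± 9.68 TPM (SD, n = 3), while Cd3e had 0 counts in every library and Cd3d had 1, 0 and 3. The nuclear RNAs Malat1 and Neat1 together held 9.85 ± 0.734% of counts and mitochondrial genes 7.29 ± 0.939% (SD, n = 3). In bulk samples such as these, fewer cells of a type and less RNA per cell cannot be told apart.

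As background, the helicases encoded by Ddx58 (RIG-I) and Ifih1 (MDA5) recognise viral RNA in the cytosol and signal through Mavs, an adaptor anchored in the mitochondrial outer membrane, while Tmem173 (STING) sits in the endoplasmic reticulum and answers to cyclic dinucleotides made when DNA is found in the cytosol. Both adaptors recruit Tbk1 and its relative Ikbke, kinases that phosphorylate the transcription factors Irf3 and Irf7 and so switch on type I interferon genes. In macrophages the receptor for Lipid A, Tlr4, reaches the same kinases through the adaptor Ticam1. Zbp1 binds nucleic acid in the left-handed Z form and can trigger cell death through Ripk3, and several of these genes are themselves induced by interferon.

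The 3 helicase genes were above the median measured protein-coding gene, which was at 6.86 TPM. Their RNA was compared first, because the family shares a fold and divides the work of recognition.
Ddx58 (ENSMUSG00000040296.15, GRCm38 chr4:40203773-40239828, minus strand), whose product binds short RNA with a 5′ triphosphate, was at 27.6, 45.9 and 35.3 TPM in replicates 1, 2 and 3, with 1491, 2299 and 2741 expected counts.
Dhx58 (ENSMUSG00000017830.15, chr11:100694884-100704271, minus strand) encodes LGP2, the member that lacks the signalling domains and modulates the others. It was at 30.3, 37.2 and 35.6 TPM, with 1158, 1125 and 1660 counts.
Ifih1 (ENSMUSG00000026896.14, chr2:62595798-62646255, minus strand), which detects long double-stranded RNA, was at 14.1, 25.1 and 15.8 TPM, with 1252, 1716 and 1751 counts.
Every library placed Ifih1 below both relatives, and its 3 values did not overlap theirs. Ddx58 was 2.00-fold above Ifih1, a log2 difference of 1.00 ± 0.15 (SD, n = 3), and Dhx58 1.93-fold above it, 0.95 ± 0.33. Between Ddx58 and Dhx58 no difference was seen beyond this spread: Ddx58 minus Dhx58 was 0.05 ± 0.23 on the log2 scale and positive in 1 of 3 libraries. In the second transcript table, made by another method, the same difference was 0.54 ± 0.27 and positive in each library, so this comparison depends on the table. It also depends on the transcripts, since the TPM of a gene adds up all of its annotated transcripts. The coding transcript Dhx58-201, at 17.8, 19.9 and 18.7 TPM, was above the coding Ddx58-201, at 7.17, 15.8 and 13.1 TPM, in each library. Dhx58 overlaps an antisense gene, Dhx58os, with 24.0, 19 and 34 counts, and whether the counting used strand is not given in the sources used here.

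Promoters of Ddx58 and Ifih1 are shown because interferon is known to induce these genes. The RefSeq promoter table (GRCm38.p6, 250 bases before to 50 after each start) held 6 of the 9 genes and not Dhx58, Tmem173 or Zbp1. It was searched on both strands for the core of the interferon-stimulated response element, GAAANNGAAA. A match was found in Ddx58 and Ifih1 and in none of the windows of Mavs, Tbk1, Ikbke or Tank, beside 1131 of all 32851 promoters in the table (3.44%). The windows below are 30 bases long, read 5′ to 3′ along the gene's own strand, with the match in capitals. In Ddx58 the match lies on the opposite strand and begins at base 3, counted with the RefSeq start as base 1; in Ifih1 it begins at base 33.
Ddx58 (chr4:40239804-40239833, minus strand): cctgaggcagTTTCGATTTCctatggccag
Ifih1 (chr2:62646206-62646235, minus strand): gagaagagaatcGAAACAGAAAccgatctg
A match describes these letters only and does not show that a factor bound there.

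The adaptors were the least abundant of the 9 genes.
Mavs (ENSMUSG00000037523.13, chr2:131234063-131248025, plus strand) was at 8.90, 9.73 and 7.82 TPM in replicates 1, 2 and 3, with 603, 549 and 694 counts.
Tmem173 (ENSMUSG00000024349.10, chr18:35733679-35740554, minus strand) was at 6.74, 6.32 and 6.05 TPM, with 202, 179 and 283 counts, the fewest of the set.
The values of the adaptors did not overlap. Mavs exceeded Tmem173 in each library, by 1.37-fold and 0.46 ± 0.14 on the log2 scale (SD, n = 3). The TPM of Tmem173 lay close to the lower end of the credibility intervals that the authors deposited (6.24 to 10.4 TPM in replicate 1, 6.24 to 10.5 in replicate 2 and 5.70 to 9.16 in replicate 3), and these intervals overlapped those of Mavs.

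The kinases and their scaffold stood at the other end.
Ikbke (ENSMUSG00000042349.13, chr1:131254343-131279606, minus strand), the inducible relative of Tbk1, was the most abundant of the 9 genes at 98.4, 113 and 114 TPM in replicates 1, 2 and 3, with 4998, 5003 and 6853 counts.
Tbk1 (ENSMUSG00000020115.3, chr10:121546455-121586787, minus strand), the kinase on which both adaptors converge, was at 43.0, 53.6 and 36.9 TPM, with 2026, 1945 and 2337 counts.
Tank (ENSMUSG00000064289.15, chr2:61578585-61654171, plus strand), a scaffold that binds both kinases, was at 31.3, 35.9 and 22.7 TPM, with 1437, 1340 and 1306 counts.
Ikbke exceeded Tbk1 in each library without overlap and was 2.45-fold higher, a log2 difference of 1.29 ± 0.29 (SD, n = 3). Tbk1 in turn was 1.49-fold above Tank, 0.58 ± 0.12, and their values did not overlap. These folds take all annotated transcripts of a gene together. Between the main coding transcripts the fold of Ikbke over Tbk1 was smaller in each library. Ikbke-201 was at 35.5, 45.6 and 39.3 TPM and Tbk1-201 at 24.3, 28.8 and 22.0 TPM in replicates 1, 2 and 3. The Ikbke locus also holds the antisense genes Gm28914 (51, 31 and 65 counts) and Gm28913 (77, 64 and 105 counts), few beside its own.

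Part of the Ikbke signal, 25.5 ± 3.79% of counts (SD, n = 3), was assigned to a transcript annotated as retaining introns, Ikbke-206. It was at 9.97, 11.4 and 7.96 TPM in replicates 1, 2 and 3. It is 5856 bases long, and 74.5% of it lies in introns of the main coding transcript Ikbke-201, among them the whole of introns 17, 18 and 19 of 21, all between coding exons. The ends of the longest of these, intron 18 (chr1:131257998-131259181, 1184 bases), are printed with 10 exon bases and 20 intron bases each, 5′ to 3′ along the gene, from the GENCODE M21 transcript sequence. Capitals mark the first and last 2 bases of the intron, where splicing would cut.
Ikbke intron 18, 5′ end (chr1:131259162-131259191, minus strand): agcggatgagGTaagcagcctagcccttcc
Ikbke intron 18, 3′ end (chr1:131257988-131258017, minus strand): aatctcattctctactcaAGgcaggtgcag
The intron carries the usual GT and AG at its ends.

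Zbp1 (ENSMUSG00000027514.14, chr2:173206612-173218923, minus strand), the sensor of Z-form nucleic acid, was the most variable of the 9 genes.
It was at 9.10, 25.0 and 18.1 TPM in replicates 1, 2 and 3, with 435, 1088 and 1212 counts.
Replicate 1 was far below the others, and the deposited credibility intervals of the 3 libraries (7.50 to 10.1, 21.7 to 26.3 and 16.1 to 19.1 TPM) did not overlap. The annotation gives Zbp1 just 3 transcripts. One of them, Zbp1-203, follows the exons of the main coding transcript Zbp1-201, apart from its outer ends, but keeps intron 4 of 7 (chr2:173210734-173212098, 1365 bases, between coding exons), whose ends are shown in the same way because most Zbp1 counts were assigned to this transcript.
Zbp1 intron 4, 5′ end (chr2:173212079-173212108, minus strand): ggtgagccagGTaagaggagggtcctggct
Zbp1 intron 4, 3′ end (chr2:173210724-173210753, minus strand): ttaatctccttccctcccAGgtcccaggac
This intron, too, begins with GT and ends with AG.

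**Figure D1:**
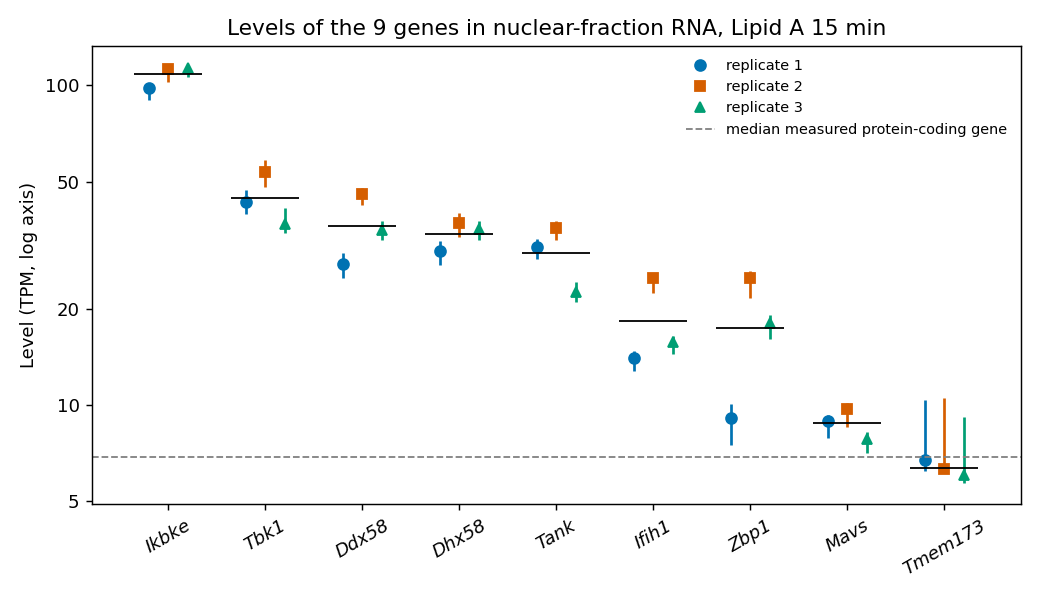
Level of each of the 9 genes in each library (TPM, logarithmic axis), with the mean as a horizontal bar, the deposited credibility interval as a vertical line and the median measured protein-coding gene (6.86 TPM) as a dashed line. Ikbke lies near 108 TPM in all libraries, Mavs and Tmem173 lie near the dashed line, and Zbp1 is the gene whose replicate 1 (9.10 TPM) is farthest below the other libraries.

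Ordered by level, the genes ran Ikbke (108 ± 8.51 TPM), Tbk1 (44.5 ± 8.46), Ddx58 (36.3 ± 9.17), Dhx58 (34.4 ± 3.58), Tank (29.96 ± 6.74), Ifih1 (18.3 ± 5.92), Zbp1 (17.4 ± 7.99), Mavs (8.82 ± 0.958) and Tmem173 (6.37 ± 0.348 TPM, all SD, n = 3). Among the 11947 measured protein-coding genes outside the mitochondrial genome this put Ikbke at percentile 98.1, Tbk1 at 93.0, the 3 helicases between 77.8 and 90.6, Mavs at 58.7 and Tmem173 at 48.6. These levels take all annotated transcripts of a gene together, coding or not. A mean of 10 TPM or more was reached by 7 of the 9 genes, against 38.4% of measured protein-coding genes and 31.5% of all measured genes. The median of the 9 was 28.7 ± 6.71 TPM, beside 6.68 ± 1.07 TPM for the median measured protein-coding gene (SD over libraries, n = 3).

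Of the 8 pairs of neighbours, Ikbke and Tbk1 had values that did not overlap, and so did Mavs and Tmem173. The values of the other 6 pairs overlapped, with log2 differences within a library averaging from 0.05 ± 0.23 for Ddx58 minus Dhx58 to 0.86 ± 0.72 for Zbp1 minus Mavs (SD, n = 3). Of these, 3 had the same sign in every library and a mean above their SD: Tbk1 minus Ddx58 (0.31 ± 0.30), Tank minus Ifih1 (0.73 ± 0.36) and Zbp1 minus Mavs. Zbp1 was 2.56- and 2.30-fold above Mavs in replicates 2 and 3, and 1.02-fold above it in replicate 1. In the second transcript table these 3 differences were 0.001 ± 0.19, 0.19 ± 0.37 and 0.88 ± 0.60, so the first 2 depend on the table. Ifih1 and Zbp1 differed by 0.14 ± 0.43, and Zbp1 was the higher of the pair in the mean once replicate 1 was left out, while Dhx58 stood above Ddx58 once replicate 2 was left out. Counting the pairs named by family, 11 differences were examined, each by an exact permutation test, two-sided, that flips the signs of its values in the libraries. The smallest p that 3 libraries allow is 0.25, and after Benjamini-Hochberg adjustment over the 11 those differences gave 0.344, so none could pass a threshold of 0.05.

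The TPM scale itself depends on what is counted. Protein-coding genes held 20.8, 23.4 and 18.3% of all TPM in replicates 1, 2 and 3. Scaled over protein-coding genes alone, Ikbke was at 525 ± 82.0 TPM, Tmem173 at 30.8 ± 3.32 TPM (SD, n = 3), and all 9 genes were at 10 TPM or more, as were 76.9% of measured protein-coding genes. On the scale of the second transcript table, 6 of the 9 reached it in the mean, against 24.4% of those genes. Protein-coding genes held 11.4, 20.8 and 3.38% of its TPM in replicates 1, 2 and 3, so that mean joins unlike scales. In replicate 3 Ikbke alone was at 10 TPM or more there, at 29.4 TPM, and Tbk1 was next at 9.15 TPM. The order of the 9 genes was the same on these scales. Scaling over protein-coding genes multiplies every gene of a library by the same factor, so it could not reorder them. On the scale of the second table Tbk1 and Ddx58 were nearly level, with Tbk1 minus Ddx58 at 0.001 ± 0.19 on the log2 scale (SD, n = 3).

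Libraries were compared on log2 CPM (counts relative to the library total), scaled by TMM (edgeR's trimmed mean of M-values), with each library set against the mean of the others. Zbp1 departed by -1.497 in replicate 1 on this log2 scale, with values of 4.46, 5.95 and 5.98 in replicates 1, 2 and 3. Ddx58 departed by -0.85 and Ifih1 by -0.57 in that library. These were the largest departures of the 9 genes there. Tank departed by 0.02, 0.11 and -0.13 in replicates 1, 2 and 3, the smallest range of the 9 genes under this scaling. Tbk1 departed by -0.17, -0.02 and 0.19, and Mavs by -0.13, -0.09 and 0.22, where the sign in replicate 1 turned to 0.0085 when libraries were scaled by their size alone. Dhx58 (-0.34, -0.16 and 0.49), Ikbke (-0.33, -0.08 and 0.41) and Tmem173 (-0.25, -0.27 and 0.53) were highest in replicate 3. On the TPM scale Tmem173 was instead highest in replicate 1 and Ikbke differed little between replicates 2 and 3.

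**Figure D2:**
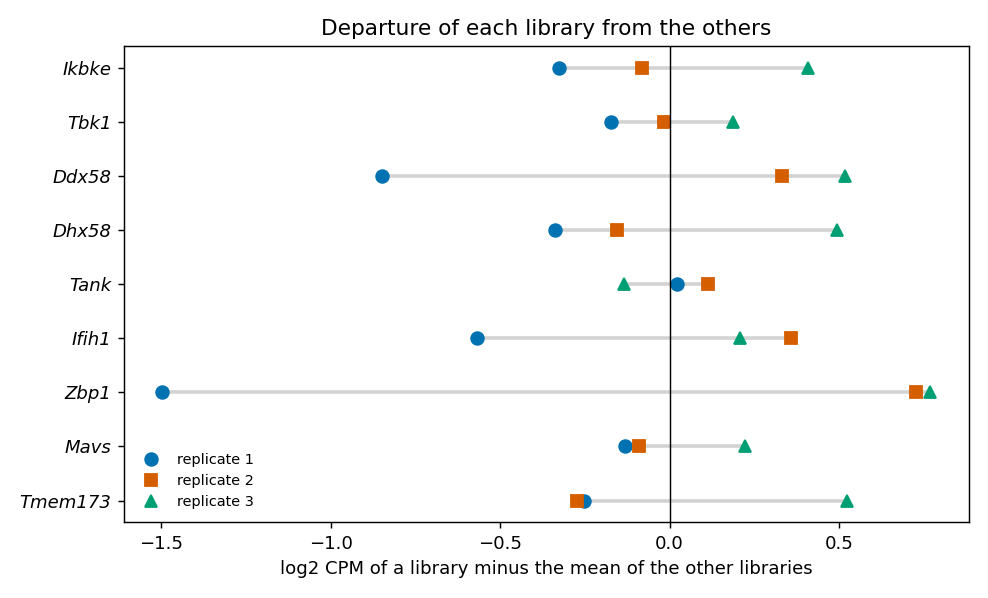
Difference between each library's log2 CPM and the mean of the other libraries, for the 9 genes in order of level. Zbp1 in replicate 1 lies at -1.497, Ddx58 at -0.85 and Ifih1 at -0.57, while under this scaling all 3 libraries of Tank lie between -0.13 and 0.11.

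The range over libraries, highest against lowest, was 2.85-fold for Zbp1, the only one of the 9 at 2-fold or more, against 20.6% of measured protein-coding genes and 25.6% of all measured genes. Next came Ddx58 at 1.88-fold and Ifih1 at 1.53-fold, and the smallest ranges were those of Tank at 1.12-fold, Mavs at 1.18-fold and Tbk1 at 1.18-fold. By library size alone the log2 ranges were 0.32 for Tank, 0.07 for Mavs and 0.04 for Tbk1, so Tank was then the widest of these, and on the TPM scale the smallest range was that of Tmem173, 1.11-fold, against 1.59-fold for Tank. The median measured protein-coding gene ranged over 1.47-fold. The biological coefficient of variation that edgeR estimated was 35.8% for Zbp1, beside a median of 27.0% over measured protein-coding genes. Without replicate 1 the range of Zbp1 was 0.03 on the log2 scale, so its spread rests on that library.

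Of the 9 genes 7 were lowest in replicate 1, where 34.7% of all measured genes were lowest, and none was highest there, where 36.6% of them were. Replicate 3 was the highest for 7 of the 9, against 31.9% of measured genes. In replicate 2 Tmem173 was lowest, where 32.4% of measured genes were, and Ifih1 and Tank were highest, where 31.5% were. Tank was lowest in replicate 3, as were 32.8% of measured genes. These counts depend on the scaling: by library size alone, 6 of the 9 were lowest in replicate 1 (25.1% of measured genes) and 4 were highest in replicate 3 (19.7%), with the median of all measured genes itself shifted by 0.16, 0.04 and -0.18 in replicates 1, 2 and 3. In the second transcript table, 6 were lowest in replicate 1 (33.6%) and all 9 highest in replicate 3 (39.8%). On the TPM scale, 5 were lowest in replicate 1 (20.4%) and 4 in replicate 3 (66.9%), while 7 were highest in replicate 2 (52.5%) and 1 in replicate 3 (7.39%). The median departure of the 9 was -0.33, -0.02 and 0.41 in replicates 1, 2 and 3, beside 0.02, 0.00 and 0.00 for all measured genes. Zbp1 alone was below both other libraries by 2-fold or more in replicate 1, as were 3.51% of measured genes. Replicate 1 also had the largest share of counts in rows that name no gene, 1.24%, against 0.372 and 0.0641% in replicates 2 and 3. The summed T cell markers moved in the same way as Zbp1, with 12.0, 31.3 and 21.1 TPM, nearly all of it Cd4 (11.9, 31.3 and 20.9 TPM), but Cd3e was at 0 counts in each library. The order was the same for the summed macrophage markers (2549, 3504 and 2944 TPM) and the neutrophil markers (1.20, 1.55 and 1.29 TPM). Lyz2 made up most of the macrophage sum, at 1593, 2346 and 1995 TPM. Csf1r and Mertk had this order too, but Adgre1, Cd68, Itgam, Fcgr1 and Spi1 did not. Adgre1 was at 197, 181 and 151 TPM. The neutrophil sum rests on few counts, 4, 1 and 6 for S100a8 and 3, 7 and 6 for S100a9. The order differed for the summed B cell, dendritic cell and fibroblast markers, so the pattern is not particular to the T cell set. The part of the unnamed rows in these departures was not tested.

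Genes whose pattern over the 3 libraries was most like those of Zbp1 and Ddx58, the most variable members, were sought among 8998 protein-coding genes whose counts averaged 100 or more, by the distance between log2 values centred on their mean. Nearest to Zbp1 were Usp35, at a distance of 0.03 with 340, 827 and 919 counts, and Pgap1, at 0.04 with 3177, 8169 and 8808 counts. For Ddx58 the nearest were Mx1, an interferon-induced antiviral GTPase, at 0.01 with 1462, 2225 and 2659 counts, and Rdh5, a retinol dehydrogenase, at 0.02 with 124, 189 and 229 counts. With 3 libraries such distances are a description only.

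The RNA came from the nucleus, so the counts were also divided by the annotated type of transcript. The 9 genes have 63 annotated transcripts, and the division among them is the estimate of a model rather than a direct count. Transcripts classed as retaining an intron are annotated for 5 of the 9 genes: Zbp1, Ikbke, Ifih1, Tmem173 and Tbk1.
In Zbp1 such a transcript held 66.1, 76.7 and 71.3% of counts in replicates 1, 2 and 3, a mean of 71.4 ± 5.30% (SD, n = 3). By counts it was the only one of the 9 at 50% or more, against 16.5% of the 7094 measured protein-coding genes with such a transcript, and stood at percentile 94.1 among them. Zbp1-203, with intron 4 in place, had 288, 835 and 864 counts, while the spliced coding transcript Zbp1-201 had 105, 166 and 250, or 20.0 ± 4.46% of the total. Both had the fewest counts in replicate 1. Because Zbp1-203 is 3325 bases long and Zbp1-201 is 1989, the share was smaller on the TPM scale, at 46.4 ± 5.70%, and it was 66.5% of counts in the second transcript table. On the TPM scale Ikbke (56.5 ± 0.961%), Tmem173 (55.1 ± 12.8%) and Ifih1 (54.3 ± 3.97%) were instead the members at 50% or more, against 21.3% of the same 7094 genes, and each lay above Zbp1.

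In Ikbke the retained-intron transcripts held 42.0, 39.1 and 37.5% of counts in replicates 1, 2 and 3 (39.5 ± 2.28%, SD, n = 3), above the median gene with such a transcript, at 18.9%. The libraries lay close together. Ikbke-206, whose intron ends are printed above, took 25.5 ± 3.79% of counts and the coding transcript Ikbke-201 took 56.2 ± 1.60%.
In Ifih1 they held 40.3, 39.3 and 36.0% (38.5 ± 2.24%), of which Ifih1-203 took 29.4 ± 3.31%. That transcript reaches into intron 3 without spanning it, and 61.1% of its bases lie there. The coding transcript Ifih1-201 held 52.2 ± 6.33%.
In Tmem173 the shares were 44.0, 43.3 and 23.5% (37.0 ± 11.6%), and replicate 3 stood apart. Tmem173-206, which runs partly into intron 4, took 29.4 ± 11.3% and the coding Tmem173-201 58.3 ± 13.5%, but the retained-intron share was 20.8% in the second transcript table. Only 9.02% of the bases of Tmem173-206 lie in introns of Tmem173-201, so its counts say little about intron RNA. Tbk1 was nearly all coding by counts, with 85.9 ± 0.750% in Tbk1-201 and 9.02 ± 1.19% in short transcripts classed as retaining an intron, a share that was 38.2% on the TPM scale.

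**Figure D3:**
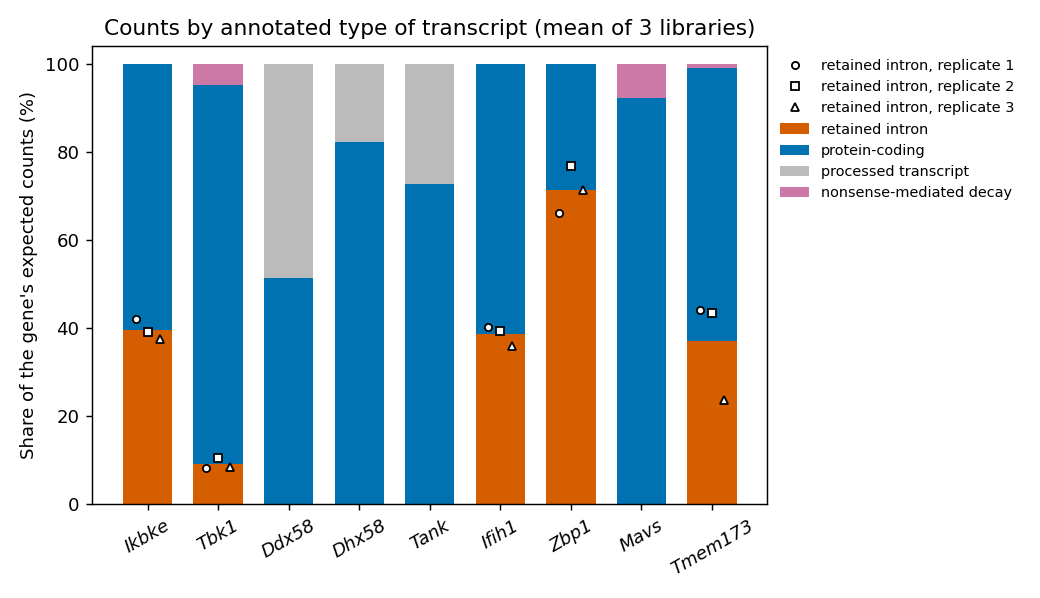
Mean share of each gene's expected counts (percent, 3 libraries) in transcripts annotated as retaining an intron, protein-coding, processed or targets of nonsense-mediated decay, with the retained-intron share of each library as open symbols. By counts the retained-intron share is largest in Zbp1 (71.4%), which is not so on the TPM scale (46.4%), and the coding share is largest in Mavs (92.1%).

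**Figure D4:**
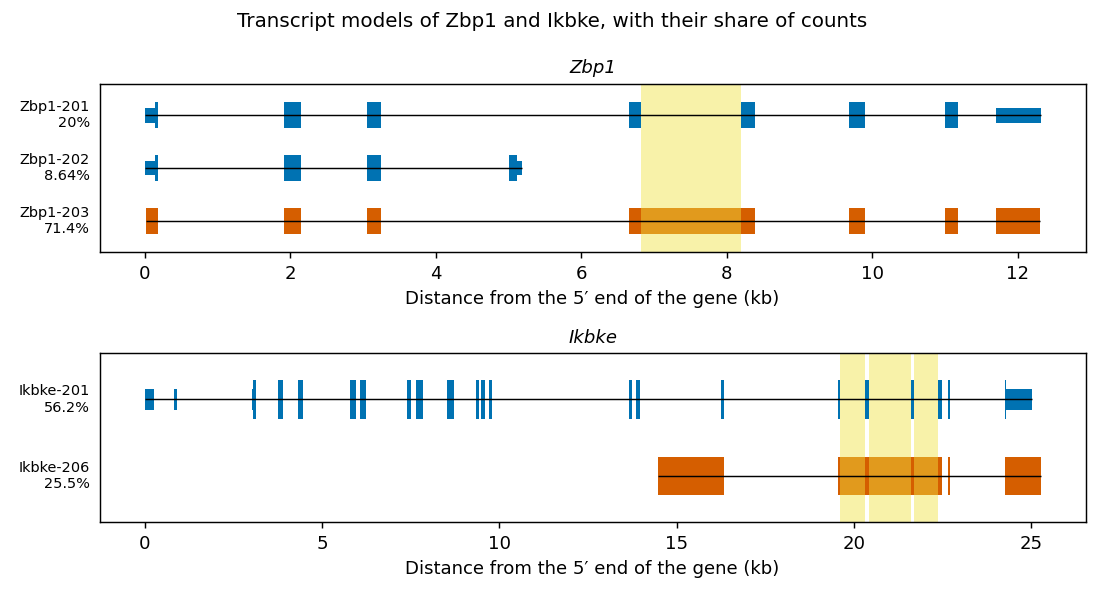
Exons of the annotated transcripts of Zbp1 and of the main transcripts of Ikbke (boxes, tall where coding or in a retained-intron transcript) against distance from the gene's 5′ end in kilobases, with each transcript's mean share of counts at the left. Yellow bands mark introns kept whole, 1 in Zbp1-203 (71.4% of counts) and 3 in Ikbke-206 (25.5%).

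The other 4 genes have no transcript classed as retaining an intron, but not all of their counts were in coding transcripts. Ddx58 had 51.3 ± 6.33% of counts in its coding transcript Ddx58-201 (44.5, 52.4 and 57.0% in replicates 1, 2 and 3), with the rest in processed transcripts that have no annotated reading frame, chiefly Ddx58-205 at 28.0 ± 3.04%. Replicate 1, where Ddx58 was lowest, had its smallest coding share. In Dhx58 the coding transcript Dhx58-201 held 82.2 ± 2.47% and the processed transcript Dhx58-204 11.5 ± 1.11% (SD, n = 3). Tank was split among more transcripts than the others, with 42.2 ± 6.20% in Tank-202 (27.4% in the second transcript table), 12.2 ± 1.14% in Tank-205 and 13.2 ± 1.11% in the processed Tank-207, of which 87.4% lies in intron 2 of Tank-202. Mavs was divided between the coding transcripts Mavs-201, at 61.1 ± 6.40%, and Mavs-202, at 31.1 ± 4.82%, but in the second transcript table they held 31.2 and 37.1%, so their order turned. A Mavs transcript marked for nonsense-mediated decay had 7.77 ± 3.84%, a share that was 29.2% in the second transcript table. Over all measured protein-coding genes the median coding share was 88.9%, exceeded here by Mavs alone (92.1 ± 3.72%, but 68.3% in the second transcript table).

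Partners of the 9 genes were then described from 7 lists named by role. Of 12 cofactors of RNA sensing 7 were at 10 TPM or more (38.4% of measured protein-coding genes were), with a median of 34.1 TPM. The highest were Trim25, the ubiquitin ligase that activates RIG-I, at 75.0 ± 23.5 TPM, and the helicase Ddx3x at 60.3 ± 10.9 TPM. The lowest were Zcchc3 at 0.337 ± 0.140 TPM and Rnf125, a ligase that marks RIG-I for degradation, at 0.120 ± 0.0361 TPM (SD, n = 3). The 15 partners of Mavs on mitochondria were lower in the median, with 4 at 10 TPM or more and a median of 7.54 TPM. They ran from Pcbp2, which brings about Mavs turnover, at 69.5 ± 14.3 TPM and Tax1bp1 at 34.5 ± 9.54 TPM down to Nlrx1 at 2.34 ± 0.167 TPM and the death-domain adaptor Fadd at 1.73 ± 0.186 TPM.

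Upstream of Tmem173, 3 of 9 genes of DNA sensing and DNA removal were at 10 TPM or more, with a median of 6.42 TPM. Samhd1, which degrades deoxynucleotides, was at 128 ± 56.4 TPM and the lysosomal nuclease Dnase2a at 43.0 ± 4.57 TPM, while Rnaseh2b was at 2.99 ± 0.722 TPM and the folate carrier Slc19a1, which can import cyclic dinucleotides in human cells, at 2.40 ± 1.23 TPM. The DNA sensor Cgas, named after its values were seen, was at 7.98, 3.12 and 2.57 TPM in replicates 1, 2 and 3, so that replicate 1 was high for Cgas and low for Zbp1. Of 10 genes of Tmem173 traffic and turnover 8 were at 10 TPM or more, led by Npc1 at 94.0 ± 17.3 TPM and the cargo receptor Tmed2 at 49.6 ± 19.9 TPM. The lowest were the ligases Rnf5 at 6.55 ± 1.13 TPM and Trim32 at 2.02 ± 0.790 TPM.

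Around Tbk1, 8 of 12 adaptors and regulators were at 10 TPM or more. The autophagy receptor Sqstm1, which Tbk1 phosphorylates, was at 124 ± 16.5 TPM and Azi2, an adaptor of the same kind as Tank, at 28.2 ± 7.94 TPM. Trim9 had 1, 0 and 2 counts and Nlrp4c 0 counts in each library, where a count of 0 allows up to 3. Among substrates and output, the transcription factors Irf3 and Irf7 were at 50.7 ± 1.96 and 35.1 ± 6.60 TPM (SD, n = 3). Of the interferon genes in that list, Ifna4 had 0, 0 and 2 counts and Ifna1 had 0 in every library, while Ifnb1, named after its values were seen, had 3, 4 and 7 counts. Downstream of Zbp1, 2 of 5 genes of necroptosis were at 10 TPM or more, Ripk1 at 27.2 ± 5.69 TPM and Casp8 at 24.4 ± 7.20 TPM. Ripk3, the kinase that Zbp1 engages, was at 6.32 ± 0.985 TPM.

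**Figure D5:**
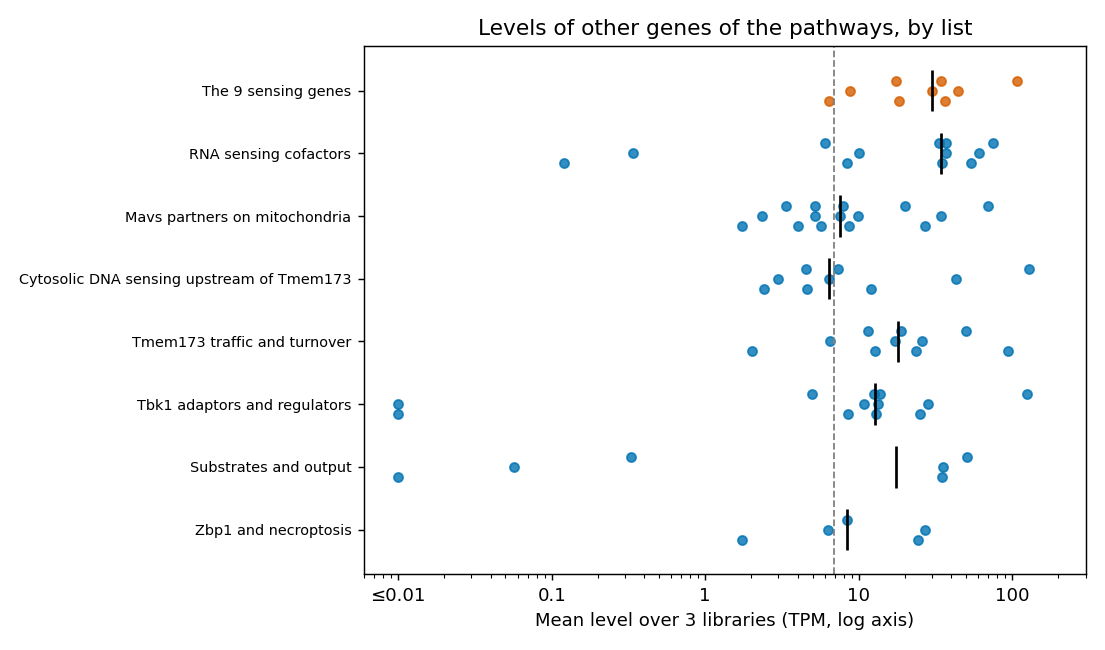
Mean level over 3 libraries (TPM, logarithmic axis, values under 0.01 drawn at 0.01) of the 9 genes, in orange, and of the genes of 7 lists, in blue, with the median of each set as a vertical bar and the median measured protein-coding gene (6.86 TPM) as a dashed line. The 9 genes and the RNA sensing cofactors have medians of about 30 TPM, and the lists of Mavs partners and of DNA sensing lie about the dashed line.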

How the data were processed

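Each of the 3 libraries came with a gene table and 2 transcript tables made by different methods. Per the file headers, the gene table and first transcript table hold expected counts, reads that the authors' program divided among features, and TPM. Credibility bounds of TPM, deposited by the authors, were treated as a score and entered no test. The second transcript table holds estimated counts and TPM as deposited. The notes deposited with each library name mm10 and GENCODE M21, while programs, versions and strandedness were not given in the sources used here. Rows that name no gene were left out (1.24, 0.372 and 0.0641% of counts in replicates 1, 2 and 3).

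Levels were compared as log2(TPM + 0.1) within libraries with an exact sign-flip permutation test; such folds understate differences of low genes. Libraries were compared on expected counts rounded to whole numbers, with a mean of at least 10, by edgeR 4.0.16 (R 4.3.3) with TMM factors of 1.067, 1.018 and 0.921 and an intercept-only model. The scaling and ranges, but not that model, were tested on simulated data. The simulated counts varied by counting error only, so the test does not check the spread between libraries. DESeq2 1.42.0 size factors, library size, other pseudocounts, no filter, the second table, protein-coding TPM and leaving out each library were the alternatives. A floor of 3 counts was 0.162, 0.173 and 0.143 CPM, which covers counting error only.

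The members, gene lists and tests were chosen with earlier results of these data known. Named genes are all members, the highest 2 and lowest 2 of each list, the 2 nearest patterns of the 2 most variable members, and member transcripts with at least 10% of counts. Cgas and Ifnb1, from the same lists, were added after their values were seen. Marker genes and antisense genes that overlap a member are also named.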

Additional observations from a re-analysis of the deposited data

How the results depend on the processing

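Each value was recomputed under the alternatives that bear on it: levels and their differences under other tables, TPM scales and pseudocounts, spreads under other scalings, filters and tables, and most of both with single libraries left out. All 9 genes kept their order except that Zbp1 passed Ifih1 without replicate 1 (Ifih1 minus Zbp1 was -0.099 to 0.31 on the log2 scale when a library was left out) and Dhx58 passed Ddx58 without replicate 2 (Ddx58 minus Dhx58 was -0.072 to 0.15 with a library left out, and 0.54 in the second transcript table). Tbk1 stayed above Ddx58 only narrowly in the second transcript table, where Tbk1 minus Ddx58 was 0.001 ± 0.19. Of 48 values of the family differences, 47 kept their sign. Other pseudocounts and scaling over protein-coding genes, in either table, could hardly change these differences, so such values are no test of them. Leaving out a library could not reverse a difference that had the same sign in every library, as all but Ddx58 minus Dhx58 had. For those the second transcript table alone could change the sign, and it did not. The median log2 level of the 9 genes, 4.82, was 3.59 in the second transcript table, 7.09 with TPM over protein-coding genes and 7.001 with both changes, the last chosen after seeing the data, and between 4.65 and 4.98 without single libraries. Measured genes with a range of 2-fold or more numbered 4061 (25.6% of 15876), against 11403 with no filter on low counts (46.5% of 24512) and 6164 in the second table (25.0% of 24660). When a library was left out they numbered 1432 to 2578, as fewer libraries tend to narrow a range. Scaling and filter were then refitted, so a range could also widen slightly: that of Zbp1 was 1.52 on the log2 scale without replicate 2, against 1.51. Replicate 1's departure for Mavs, -0.13, was 0.0085 with library size alone. On log2 CPM, Zbp1 departed in replicate 1 by -1.51 to -1.36 under every scaling of the counts and in the second table, a range that leaves out the TPM scale. For the other changes the cause was not tested. Of 25 recomputed retained-intron shares, 17 moved by less than the SD between libraries and 8 by more. Leaving out a single library cannot move such a mean by as much as that SD, so those values are no test. Every share moved by more on the TPM scale. In the second transcript table only the shares of Ifih1 (37.1%) and Zbp1 (66.5%) moved by less. No paired comparison of groups was possible because there is 1 group only, while differences between genes were taken within each library. With 179 to 283 counts, Tmem173 has the least certain division among transcripts.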
